A study of Mus musculus with 24 samples.

Results

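The genes described here are 8 genes of lactate dehydrogenase and of the handling of pyruvate by the mitochondrion: Ldha and Ldhb, Pdha1 and Pdhb, Pdk1 and Pdk3, and Mpc1 and Mpc2. They were taken by name from the 16572 gene names of the RNA-seq table. Each of the 8 was found, and none has more than 1 row. The list was drawn up with earlier results of the same columns known, and counts as selected on the levels and differences given here, so these are a description and carry no test.

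Oocytes of class IV, the largest class by diameter, were grown without follicles. Immature oocytes of 7-day-old females, of the strain labelled C57BL/6 Barb (the methods of the study name a cross with SV129), were cultured for 9 days in an atmosphere of 5% O2 (IV 5% O2, written as 5% O2 below) or for 14 days in 20% O2 (IV 20% O2, written as 20% O2). Both cultures started on a support of theca-like cells. Oxygen, days of culture and the interval between medium changes differ together between the groups and cannot be told apart. The labels give a diameter of 60 to 70 µm for both groups, whereas the methods of the study give a smaller range for IV 20% O2. Ribosome-depleted, strand-marked RNA-seq was made with 2 libraries per condition, and the table holds 1 pooled column for each condition. No value therefore has an SD, a p-value or a replicate check. The 20 bisulphite samples of the series were not analysed here.

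Pyruvate is the end product of glycolysis and lies at a branch point. In the cytosol, lactate dehydrogenase, a tetramer of LDHA and LDHB subunits, interconverts pyruvate and lactate with NADH and NAD+. The mitochondrial pyruvate carrier, a heterodimer of MPC1 and MPC2, brings pyruvate into the matrix, where the pyruvate dehydrogenase complex turns it into acetyl-CoA. The kinases PDK1 and PDK3 phosphorylate the E1 alpha subunit of that complex and switch it off. The growing mouse oocyte takes up pyruvate, which its granulosa cells supply, as a main fuel, and its lactate dehydrogenase is known to be rich in LDHB subunits. Ldha and Pdk1 are textbook targets of the hypoxia-inducible factor HIF-1.

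The windows upstream of the lactate dehydrogenase genes are shown because the balance of their transcripts is the main comparison made here, and because Ldha is a known HIF-1 target. Both are RefSeq sequences of the mouse assembly GRCm38.p6, written 5′ to 3′ on the strand of the gene, and each covers the 250 bases before an annotated start. That of Ldha lies at chr7:46845554-46845803 on the plus strand and that of Ldhb at chr6:142507958-142508207 on the minus strand, and neither overlaps an annotated exon. Capitals mark ACGTG, the core of the HIF response element, read on either strand, so that the other strand shows it as CACGT.
Ldha: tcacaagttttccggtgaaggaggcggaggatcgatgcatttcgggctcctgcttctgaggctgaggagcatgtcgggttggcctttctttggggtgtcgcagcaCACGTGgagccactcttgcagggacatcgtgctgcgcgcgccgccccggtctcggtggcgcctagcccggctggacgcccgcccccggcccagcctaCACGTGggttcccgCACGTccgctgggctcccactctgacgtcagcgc
Ldhb: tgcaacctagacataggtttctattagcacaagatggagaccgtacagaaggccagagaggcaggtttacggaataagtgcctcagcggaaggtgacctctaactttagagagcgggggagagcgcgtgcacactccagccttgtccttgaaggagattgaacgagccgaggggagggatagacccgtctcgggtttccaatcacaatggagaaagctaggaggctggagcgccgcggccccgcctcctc
The Ldha window holds 5 matches to the core, counting both strands, each placed by its leftmost letter. The matches at 145 and 144 bases before the start overlap in 1 palindrome, CACGTG, and those at 48 and 47 bases overlap in another. The remaining match lies 34 bases before the start. Neither the second annotated Ldha window nor the Ldhb window holds a match.

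All 8 members had a promoter window of 300 bases (250 before the start and 50 after it), with 11 windows between them. Of the 8, 3 had a match in at least 1 window, namely Ldha, Pdhb with 1 match 248 bases before the start and Pdk3 with 1 match 53 bases before it. Over all genes 21.8% of 27025 had a match in at least 1 window. By window, 19.6% of 32851 held the core and 7.15% held the palindrome. The Pdk1 windows, although Pdk1 is a HIF-1 target, held no match. A match in these letters is a description and not a binding site, and a window without one says nothing about the factor.

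The deposited values, after the log2 was undone, were reads scaled to 1000000 reads of the column (RPM) without a correction for length. The columns hold 132185259 reads for 5% O2 and 40875359 for 20% O2, and a gene with 0 reads could have had up to 3, which is 0.0227 and 0.0734 RPM. A difference is log2(RPM + 1) at 5% O2 minus the same at 20% O2, a scale that understates the change of low genes. A ratio is RPM over RPM, with an exact 95% Clopper-Pearson interval in brackets that covers counting error only and compares these libraries, not the conditions. The mean of both columns reached 1 RPM for 14704 genes, of which 18.7% were at least 2-fold higher at 5% O2 and 9.22% at least 2-fold lower, and the median difference was 0.26. Scaling the columns by their median ratio changed these shares to 11.6% and 13.9%, and quantile normalization to 12.0% and 12.7%.

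All 8 members had a mean of at least 1 RPM. Ldha was at least 2-fold higher at 5% O2 and Mpc1 at least 2-fold lower, and the other 6 stayed within 2-fold. Each count is 1 of 8, or 12.5%, beside the 18.7% and 9.22% of all genes. The median difference of the members was 0.29, next to 0.26 for all genes, and 4 members lay above the median gene and 4 below it. The members thus had no common direction. In bulk RNA, fewer cells of a type and less RNA per cell cannot be told apart.

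**Figure D1:**
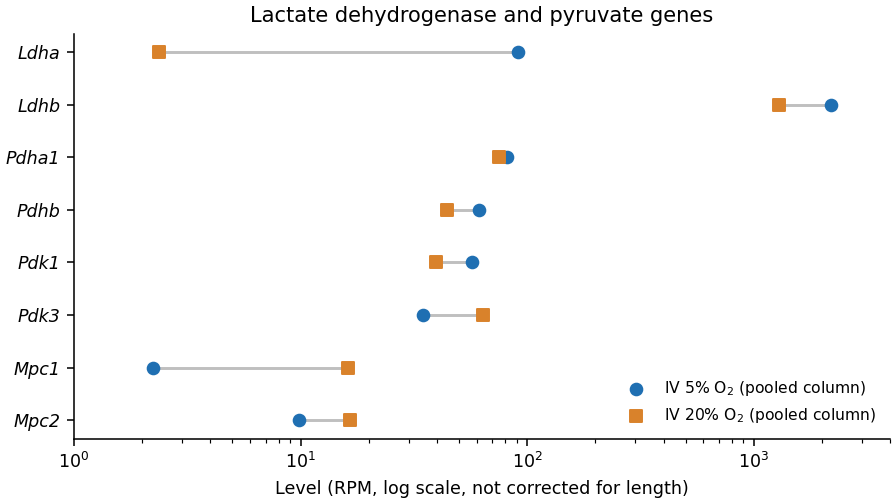
Level of each member in RPM (log axis, not corrected for length) in the pooled column of 5% O2 (circles) and of 20% O2 (squares), with 1 value per column and no error bar. Ldha has 91.0 RPM at 5% O2 against 2.37 RPM at 20% O2 and Mpc1 lies the other way, with 2.22 against 16.1 RPM, while Ldhb is the highest member in both columns.

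Ldhb encodes the subunit that prevails in heart muscle and in oocytes. It lies on chromosome 6 of GRCm38 from 142490249 to 142507957, on the minus strand. It had 2188 RPM at 5% O2 (289242 reads) and 1288 RPM at 20% O2 (52648 reads), a ratio of 1.70 [1.68 to 1.71] and a difference of 0.76, or 0.51 above the median gene. Ldhb ranked 8th by RPM at 5% O2 and 14th at 20% O2, among the most abundant transcripts of either column. Per kilobase of exon its level was 1394 RPM at 5% O2 and 820 RPM at 20% O2, far above the other 7 members, which ranged from 1.07 to 27.5 and from 0.717 to 25.0.

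Ldha encodes the subunit that prevails in glycolytic tissues such as skeletal muscle. It lies on chromosome 7 from 46841475 to 46855627, on the plus strand. It had 91.0 RPM at 5% O2 (12023 reads) and 2.37 RPM at 20% O2 (97 reads), a ratio of 38.3 [31.4 to 47.3]. The difference of 4.77, or 4.51 above the median gene, was the 10th highest of the 14704 genes. By level, Ldha ranked 2398th at 5% O2 and 12057th at 20% O2. The interval rests on the 97 reads of 20% O2, and with pseudocounts of 0.1 and 5 RPM the difference was 5.20 and 3.70.

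**Figure D2:**
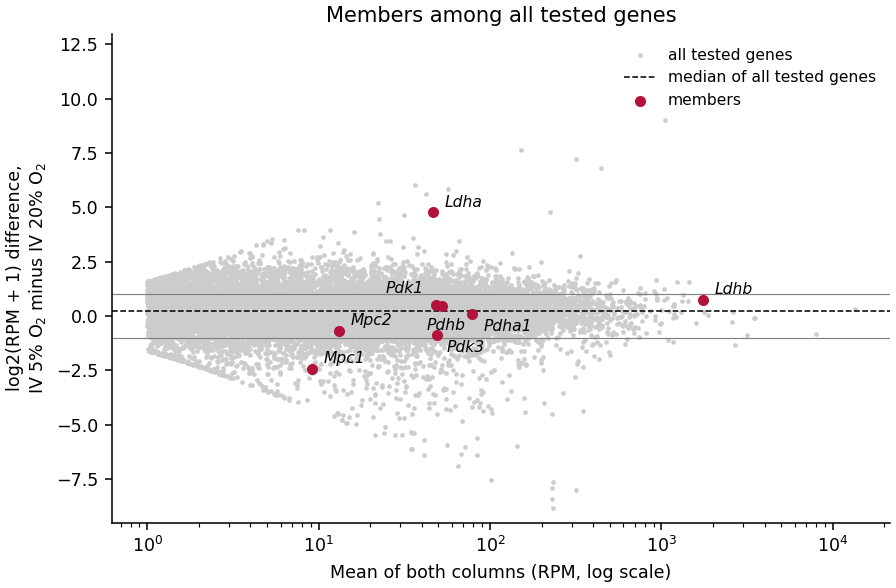
Difference in log2(RPM + 1), 5% O2 minus 20% O2, against the mean of both columns in RPM (log axis), for all 14704 genes tested (grey) and the 8 members (red). The dashed line is the median of all genes, 0.26, and the thin lines mark 2-fold; Ldha lies at 4.77 and Mpc1 at -2.41, outside those lines, and the other 6 members lie between them.

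The balance of the lactate dehydrogenase transcripts was on the side of Ldhb in both columns, and much less so at 5% O2. Of the reads of both genes, 3.99% [3.92 to 4.06] fell on Ldha at 5% O2 and 0.184% [0.149 to 0.224] at 20% O2. Ldhb thus had 24.1 reads for each read of Ldha at 5% O2 and 543 at 20% O2. The ratio of Ldha to Ldhb was 22.6 times higher at 5% O2 [18.5 to 27.8], which is 4.50 on the log2 scale [4.21 to 4.80]. Column depth and gene length cancel in this comparison. The log2 value was 4.0 with a pseudocount of 1 RPM and 2.94 with 5 RPM. The level of each share does depend on length: divided by exonic length, the Ldha share was 1.93% at 5% O2 and 0.0873% at 20% O2. Divided by the longest coding transcript, it was 2.90% and 0.132%. Together the pair had 2279 RPM at 5% O2 and 1290 RPM at 20% O2, a ratio of 1.77 [1.75 to 1.78], and nearly all of it was Ldhb.

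Part of the sequence of both lactate dehydrogenase genes recurs in the genome. Windows were taken every 10 bases along the longest coding transcript and looked for elsewhere in the genome without mismatch. For Ldha, 29.4% of 50-base windows but 1.74% of 100-base windows, the length of a read, were found elsewhere, and for Ldhb 31.0% and 8.26%. The copies of Ldha touch 3 other rows of the table. These are Pcdh9 (56.7 and 66.8 RPM at 5% O2 and 20% O2), Baz2b (107 and 78.0 RPM) and Ccdc30 (7.93 and 7.83 RPM). Those levels are of the whole rows and do not measure reads at the copies. The part of reads from copies in the Ldha difference was not tested.

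Ldhc, which encodes the subunit named for the testis and lies next to Ldha on chromosome 7, from 46861203 to 46878142, had 47.9 RPM at 5% O2 and 49.0 RPM at 20% O2. Its ratio was 0.979 [0.931 to 1.03] and its difference -0.03, or -0.29 relative to the median gene. None of its 50-base or 100-base windows was found elsewhere. Of the reads of Ldha and Ldhc together, 65.5% fell on Ldha at 5% O2 and 4.62% at 20% O2, so the order of these neighbouring genes by reads was opposite in the columns. Divided by exonic length, the Ldha share of that pair was 47.5% and 2.26%, so per length Ldhc was above Ldha in both columns on that measure, but below it at 5% O2 with the longest transcript, at 58.9%. Ldhd, which encodes a D-lactate dehydrogenase, had 39.8 and 29.6 RPM and a difference of 0.42.

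Within the pyruvate dehydrogenase complex, both E1 subunit genes stayed within 2-fold between the columns. Pdha1, which encodes the E1 alpha subunit (chromosome X, 160122209 to 160138413, minus strand), had 81.6 RPM at 5% O2 (10786 reads) and 75.2 RPM at 20% O2 (3075 reads). Its ratio was 1.08 [1.04 to 1.13] and its difference 0.12, which was -0.14 relative to the median gene and turned negative under both other scalings (-0.20 by median ratio and -0.10 by quantiles). Pdhb, which encodes the E1 beta subunit (chromosome 14, 8165996 to 8173025, minus strand), had 61.1 RPM (8071 reads) and 44.3 RPM (1809 reads), a ratio of 1.38 [1.31 to 1.45] and a difference of 0.46. Pdha1 took 57.2% of the reads of both genes at 5% O2 and 63.0% at 20% O2. Which of them is higher per length depends on the length used, with a Pdha1 share of 58.0% and 63.7% by exonic length and of 41.5% and 47.5% by the longest transcript. At Pdhb, 10.6% of the 100-base windows were found elsewhere, and at Pdha1 none was. An exon of Map3k15 lies on the opposite strand of Pdha1, and whether the counting used strand is not given in the sources used here.

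The kinases differed in opposite directions. Pdk1 (chromosome 2, 71873224 to 71903858, plus strand) had 56.9 RPM at 5% O2 (7522 reads) and 39.8 RPM at 20% O2 (1625 reads), a ratio of 1.43 [1.36 to 1.51] and a difference of 0.51, or 0.25 above the median gene. Pdk3 (chromosome X, 93764607 to 93832201, minus strand) had 34.7 RPM (4581 reads) and 64.0 RPM (2614 reads), which made it 1.85-fold lower at 5% O2 [1.76 to 1.94]. The difference of Pdk3 was -0.87, or -1.12 relative to the median gene, and it passed 2-fold with median-ratio scaling (-1.18) and quantile normalization (-1.05). No 100-base window of either kinase gene was found elsewhere.

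By reads, Pdk1 was the higher kinase at 5% O2 with 62.1% of the pair [61.3 to 63.0] and the lower at 20% O2 with 38.3% [36.9 to 39.8]. The Pdk1 to Pdk3 ratio was 2.64 times higher at 5% O2 [2.46 to 2.84]. Per kilobase of exon Pdk3 was above Pdk1 in both columns, at 13.5 against 7.32 RPM at 5% O2 and at 25.0 against 5.11 RPM at 20% O2. The sum of both kinases was 91.6 RPM at 5% O2 and 104 RPM at 20% O2, a ratio of 0.883 [0.852 to 0.915]. By reads, the make-up of the pair thus differed more than its total. Summed per kilobase of exon, the kinases had 20.8 RPM at 5% O2 and 30.1 RPM at 20% O2. Against Pdha1, whose product the kinases phosphorylate, Pdk1 was 1.32 times higher at 5% O2 [1.23 to 1.41] and Pdk3 2.00 times lower [1.88 to 2.13].

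**Figure D3:**
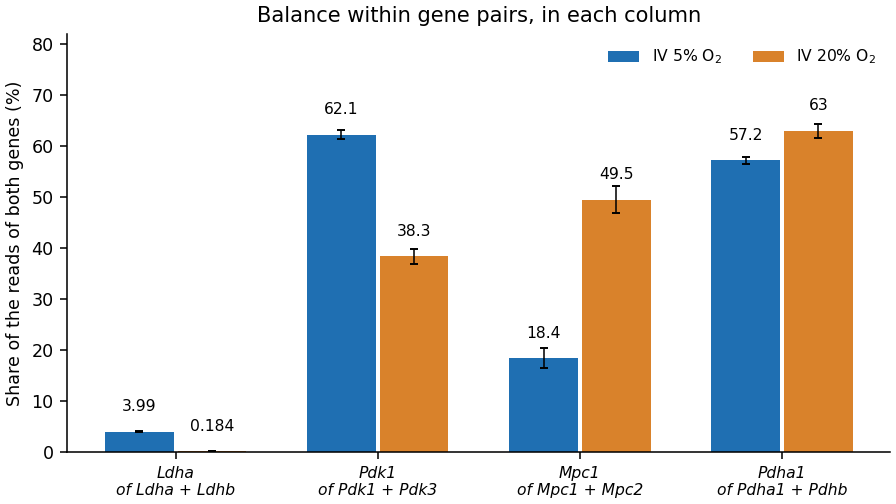
Share of the first gene in the reads of both genes of a pair, in percent, at 5% O2 (blue) and 20% O2 (orange); error bars are exact 95% binomial intervals that cover counting error only, and lengths are not corrected for. The share of Ldha is 3.99% against 0.184%, that of Pdk1 62.1% against 38.3%, that of Mpc1 18.4% against 49.5% and that of Pdha1 57.2% against 63.0%.

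Both subunits of the mitochondrial pyruvate carrier were lower at 5% O2. Mpc1 (chromosome 17, 8282904 to 8297661, plus strand) had 2.22 RPM at 5% O2 (294 reads) and 16.1 RPM at 20% O2 (659 reads), 7.25-fold lower [6.31 to 8.35]. Its difference was -2.41, or -2.67 relative to the median gene, the 254th most negative of the 14704 genes. Mpc2 (chromosome 1, 165460637 to 165481214, plus strand) had 9.83 RPM (1300 reads) and 16.5 RPM (673 reads), 1.67-fold lower [1.52 to 1.84], with a difference of -0.69, or -0.95 relative to the median gene. Together they had 12.1 RPM at 5% O2 and 32.6 RPM at 20% O2, a ratio of 0.370 [0.344 to 0.398]. Summed per kilobase of exon, their levels were 2.41 and 9.99 RPM. That sum depends on the length used. Per kilobase of the longest transcript, Mpc1 had 2.31 and 16.8 RPM and Mpc2 had 9.59 and 16.1 RPM.

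Mpc1 took 18.4% of the reads of the carrier genes at 5% O2 [16.6 to 20.4] and 49.5% at 20% O2 [46.8 to 52.2]. The Mpc1 to Mpc2 ratio was 4.33 times lower at 5% O2 [3.66 to 5.13], or -2.11 on the log2 scale, which became -1.72 with a pseudocount of 1 RPM and -1.01 with 5 RPM. Divided by exonic length, the Mpc1 share was 44.4% and 77.5%, and divided by the longest transcript it was 19.4% and 51.1%. The Mpc1 value is uncertain, because 59.8% of its 50-base windows and 57.5% of its 100-base windows also occur elsewhere, with 55 of the shorter windows matching inside the row of Zfp839, which had 60.4 RPM at 5% O2 and 40.3 RPM at 20% O2. How reads with several places were counted is not given in the sources used here. An exon of 4930506C21Rik lies on the opposite strand of Mpc1. No 100-base window of Mpc2 was found elsewhere.

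Of 40 other genes of lactate and pyruvate handling, 34 are in the table and 33 had a mean of at least 1 RPM. At least 2-fold higher at 5% O2 were 7 of them (21.2%, beside 18.7% of all genes), and 1 (3.03%, beside 9.22%) was at least 2-fold lower. The median difference was 0.29, close to the 0.26 of all genes, with 17 genes above the median gene and 16 below it. With median-ratio scaling or quantile normalization, 4 were higher and 2 lower, and 2 were higher with a pseudocount of 5 RPM. Ldhal6b, Pdk2, Pdk4, Pklr, Gpt and Gpd1 have no row in the table used here. Of the genes named here, Ldhd, Pdpr, Me1, Me3, Slc16a7, Emb, Mdh1 and Gpd2 overlap an exon of another gene on the opposite strand, as Pdha1 does.

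Of 6 genes of lactate and pyruvate transport at the plasma membrane, 5 had a mean of at least 1 RPM and 3 were at least 2-fold higher, beside 18.7% of all genes. Of these 3, Slc16a3 and Slc16a7 reached a mean of 1 RPM through the 5% O2 column alone and would leave the count at a mean of 5 RPM. Slc16a3, which encodes the lactate exporter MCT4, had 4.92 RPM at 5% O2 (651 reads) and 0.881 RPM at 20% O2 (36 reads), a ratio of 5.59 [4.0 to 8.06]. Slc16a7, which encodes MCT2, had 2.10 RPM (278 reads) and 0.0245 RPM, the value of 1 read, a ratio of 86.0 with an interval from 15.3 to 3408. Emb, which encodes embigin, a partner of such transporters in the membrane, had 28.7 and 9.61 RPM, a ratio of 2.98 [2.69 to 3.32]. Slc16a1, which encodes MCT1 and is the highest gene of that list, stayed within 2-fold at 148 and 107 RPM, a ratio of 1.38 [1.34 to 1.43]. The lowest of the list by mean, Slc16a8, had 1.06 and 0.0489 RPM and fell under the mean of 1 RPM.

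Pkm, which encodes the pyruvate kinase that makes pyruvate, had 824 RPM at 5% O2 and 256 RPM at 20% O2, a ratio of 3.22 [3.16 to 3.29] and a difference of 1.69. At Pkm 12.4% of the 100-base windows were found elsewhere, and an exon of Gm49759 overlaps it on the same strand. Among enzymes that consume or form pyruvate, Me3, a mitochondrial malic enzyme gene, had 6.84 and 2.40 RPM, a ratio of 2.85 [2.31 to 3.55]. Gpt2, whose product interconverts pyruvate and alanine in the mitochondrion, was the lower gene, with 86.4 RPM at 5% O2 and 191 RPM at 20% O2, a difference of -1.13. Me1, the cytosolic malic enzyme gene and the highest of that list, had 461 and 276 RPM, a difference of 0.73, with 22.5% of its 100-base windows found elsewhere.

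Of the other pyruvate dehydrogenase genes, Pdhx, which encodes the E3-binding protein, had 155 RPM at 5% O2 and 76.1 RPM at 20% O2. Its difference of 1.01 was just past the 2-fold limit, and 0.75 above the median gene. Dld, the E3 subunit gene and the highest of its list, had 167 and 185 RPM, a difference of -0.15. Summed over Pdha1, Pdhb, Dlat, Dld and Pdhx, the complex had 525 and 423 RPM, a ratio of 1.24 [1.22 to 1.26]. The 3 phosphatase genes measured had lower values at 5% O2, and none was 2-fold apart as deposited. Of these, Pdp1, whose product reverses the action of the kinases, had 48.5 and 51.2 RPM (-0.08), and Pdpr, the gene of the phosphatase's regulatory subunit, had 32.6 and 62.8 RPM (-0.92, or -1.18 relative to the median gene) and passed 2-fold with median-ratio scaling and quantile normalization.

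None of the 5 genes of lipoate and thiamine supply, cofactors of the complex, was 2-fold apart, beside 18.7% of all genes higher and 9.22% lower. Of 8 measured genes of the shuttles that carry cytosolic NADH equivalents into the mitochondrion, 1 was at least 2-fold higher (beside 18.7% of all genes) and none at least 2-fold lower (beside 9.22%). The higher gene was Gpd2, the mitochondrial glycerol phosphate dehydrogenase gene, with 6.76 RPM at 5% O2 and 1.59 RPM at 20% O2, a ratio of 4.25 [3.30 to 5.55]. Mdh1, the cytosolic malate dehydrogenase gene and the highest of that list, had 106 and 74.0 RPM, a difference of 0.51.

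**Figure D4:**
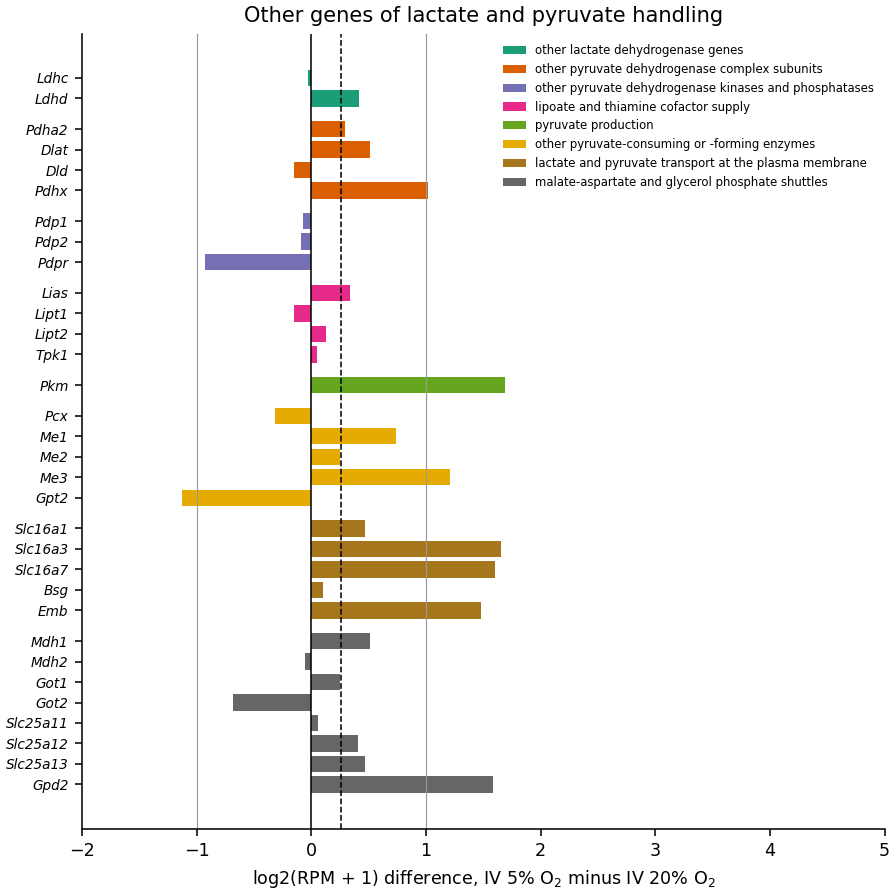
Difference in log2(RPM + 1), 5% O2 minus 20% O2, for 32 of the 33 other genes of lactate and pyruvate handling with a mean of at least 1 RPM, coloured by list. The dashed line is the median of all genes, 0.26, and the thin lines mark 2-fold; Slc16a3, Slc16a7, Emb, Pkm, Me3, Gpd2 and Pdhx are past the upper line and Gpt2 at -1.13 is past the lower.

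The identity of the cells was read from marker lists. All 12 oocyte markers were in the table, with a summed level of 10199 RPM at 5% O2 and 13967 RPM at 20% O2, led by Gdf9 and Zp2. Values were lower at 5% O2 for 8 of the 12. At least 2-fold lower were 3 (beside 9.22% of all genes), namely Zp2 (-1.31), Zp3 (-1.12) and Kit (-1.59). None was at least 2-fold higher (beside 18.7% of all genes). Of 12 theca and stroma markers, 8 are in the table and all 8 had higher values at 5% O2, where the median gene was 0.26 higher. They summed to 34.4 RPM at 5% O2 and 2.69 RPM at 20% O2. The 5 with a mean of at least 1 RPM were all at least 2-fold higher, beside 18.7% of all genes. Of these 5, Cyp11a1, Postn, Dcn and Vim reached that mean through the 5% O2 column alone. Col1a2, Dcn and Vim had no read at 20% O2, which allows up to 0.0734 RPM. Cyp11a1, a steroidogenic enzyme gene and the highest of the list at 5% O2, had 16.4 RPM (2171 reads) and 0.122 RPM (5 reads), a ratio of 134 [57.4 to 414], and the highest at 20% O2 was Star with 5.18 and 1.86 RPM. Ldha moved in the same direction as these markers, and its level at 5% O2 was 2.65 times their summed level, against 0.882 times at 20% O2. Slc16a3, Slc16a7, Emb, Pkm, Me3, Gpd2 and Pdhx were also at least 2-fold higher at 5% O2, with 2.10 to 824 RPM there. The part of such cells in the difference of Ldha or of these genes was not tested.

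Of 12 granulosa markers, 7 are in the table, with sums of 47.3 RPM at 5% O2 and 30.3 RPM at 20% O2. Values were higher at 5% O2 for 6 of these 7. Of the 5 with a mean of at least 1 RPM, 2 were at least 2-fold higher (beside 18.7% of all genes), namely Hsd3b1 and Inhba. None was at least 2-fold lower (beside 9.22%). Both higher genes reached that mean through the 5% O2 column alone. Hsd3b1, a steroidogenic enzyme gene, had 5.96 and 0.489 RPM, and Inhba, an inhibin and activin subunit gene, had 2.63 and 0.758 RPM. Kitl had 10.2 and 5.58 RPM, Cyp19a1 9.12 and 5.70 RPM, and Nr5a2, the highest, 18.7 and 17.6 RPM. Inha had 89 reads at 5% O2 and none at 20% O2, and Fshr no read at 5% O2 and 6 reads at 20% O2. The defining markers Amh, Amhr2 and Foxl2 have no row in the table used here. Macrophage markers (3 of 7 in the table, led by Csf1r) summed to 17.9 and 21.1 RPM, and endothelial markers (4 of 6, led by Vwf with 55.5 and 248 RPM) to 117 and 284 RPM. Of 5 erythroid markers, Alas2 alone is in the table, with 1.32 and 1.57 RPM. The macrophage and endothelial sums were lower at 5% O2 through Csf1r (9.28 and 15.0 RPM) and Vwf, while the other members of both lists had higher values there, as Ldha did. Cd68 had 7.18 and 6.14 RPM, and Lyz2 had 184 reads at 5% O2 and none at 20% O2. Pecam1 had 45.9 and 32.7 RPM, Tek had 13.8 and 3.40 RPM, and Kdr had 172 reads at 5% O2 and none at 20% O2. The part of such cells in the differences of the members was not tested.

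**Figure D5:**
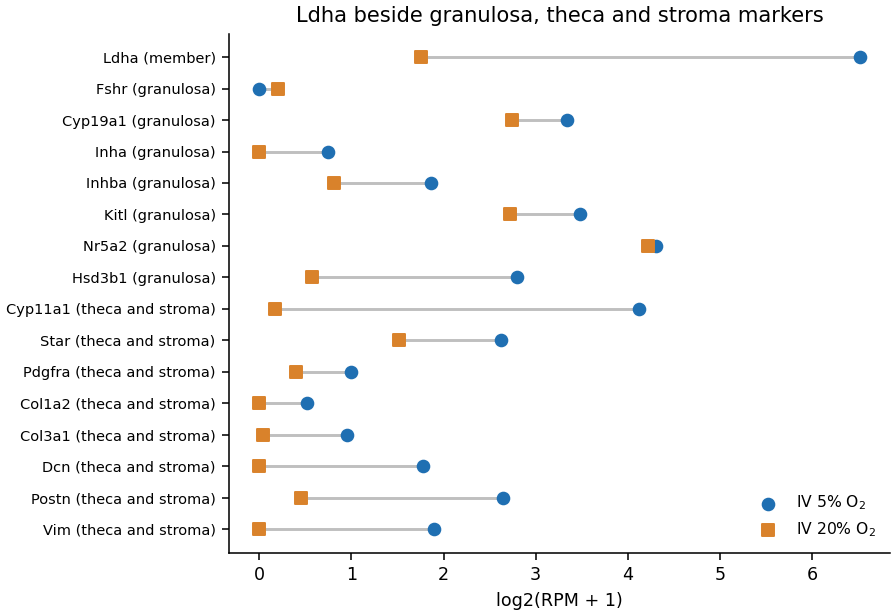
Level in log2(RPM + 1) of Ldha and of the granulosa, theca and stroma markers in the table, at 5% O2 (circles) and 20% O2 (squares), with 1 value per pooled column. All 8 theca and stroma markers are higher at 5% O2, the highest being Cyp11a1 with 16.4 RPM, below the 91.0 RPM of Ldha.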

How the data were processed

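RNA-seq libraries of class IV oocytes (4 libraries, 2 per condition) were sequenced as paired reads of 100 bases. The authors aligned them with TopHat2 2.0.9 (per the submitters' processing notes) to GRCm38, quantified exons in SeqMonk and took logarithms. For each gene, 1 log2 value a condition was deposited. The column unit is called RPKM, but 99.9% and 100.0% of the linear values of the 2 columns were within 0.05 of a whole number of reads, so they were read as log2 RPM. Empty rows were set to 0. How libraries were combined is not given in the sources used here. The table holds 1 further value column, of no mapped sample, which was not used.

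The members and the gene lists were chosen with earlier results of these data known. Differences used a pseudocount of 1 RPM and a mean of at least 1 RPM, and a gene was counted from 2-fold. Reads without molecular identifiers are not independent molecules, so intervals and floors cover counting error only. The IV 5% O2 column is 3.23 times deeper. Named were all members, pathway genes at least 2-fold apart, and the highest gene of each list, of which 1 is not reported here. Genes named beyond that were chosen after their values were seen. Lengths came from GENCODE release M21, whose coordinates equal the table's for all members. Alternatives were other pseudocounts, filters, scalings and lengths, and, chosen after seeing the data, genes with under 10% of 100-base windows elsewhere, the scalings of the counts over all genes, and pseudocounts and scalings of the ratios within pairs other than Ldha and Ldhb. Python 3.11.15, pandas 2.3.3 and scipy 1.17.1 were used, and the scripts were tested on simulated data.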

Additional observations from a re-analysis of the deposited data

How the results depend on the processing

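No paired analysis was possible because the table holds 1 pooled column per condition, and for the same reason no library could be left out and limma could not be run. Of 40 member differences recomputed with other pseudocounts, scalings or summed rows, 38 kept their direction; the exceptions were those of Pdha1, -0.20 by median-ratio scaling and -0.10 by quantile normalization. Members at least 2-fold lower in IV 5% O2 were 2 with either scaling, Pdk3 being added, and 0 when genes with at least 10% of 100-base windows elsewhere were left out, which removes Mpc1 and Pdhb. Pathway genes at least 2-fold higher were 4 with either scaling, 3 with a mean of at least 5 RPM and 2 with a pseudocount of 5 RPM, and those at least 2-fold lower were 2 with either scaling. The Ldha share was 1.93% (IV 5% O2) and 0.0873% (IV 20% O2) divided by exonic length, and 2.90% and 0.132% divided by the longest transcript. The log2 difference of the Ldha to Ldhb ratio was 4.0 with a pseudocount of 1 RPM and 2.94 with 5 RPM, since a pseudocount raises the low Ldha value of IV 20% O2 and so lessens the difference by construction. Depth limits Ldha in IV 20% O2 (97 reads) and Mpc1 in IV 5% O2 (294 reads) most among the members. Of the pathway genes named, Slc16a7 has 1 read, Slc16a8 2, Slc16a3 36 and Gpd2 65 in IV 20% O2.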
